A study of Mus musculus with 20 samples.

Results

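Cholesterol and fatty acid synthesis is represented here by 29 genes, a selection by name of enzymes and regulators of these pathways, out of 54986 rows in the deposited expression table. Other genes of the pathways, such as Insig2 and Mbtps1, were not in the selection and are covered only by the further lists. All 29 passed the filter on low values that left 17103 genes for testing. By role, 7 genes act in the mevalonate steps (Acat2, Hmgcs1, Mvk, Pmvk, Mvd, Idi1 and Fdps), 11 in the squalene and sterol steps (Fdft1, Sqle, Lss, Cyp51, Tm7sf2, Msmo1, Nsdhl, Hsd17b7, Ebp, Sc5d and Dhcr7), 5 in sterol sensing and transport (Insig1, Srebf1, Srebf2, Scap and Stard4) and 6 in the fatty acid steps (Acly, Acaca, Fasn, Scd1, Scd2 and Elovl6).

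RNA was sequenced from mouse mammary cells in 10 conditions, with 2 libraries each. NMuMG is an epithelial line of normal murine mammary gland, TGFb is the same line after 4 days with TGFβ, and E1KD is NMuMG carrying a short hairpin RNA against hnRNP E1, the product of Pcbp1. M1P and L1P are lines grown in culture from the primary tumor and from lung metastases that formed after E1KD cells were injected into the mammary fat pad of NOD/SCID mice, so that both carry the same hairpin as E1KD. Platr18 clone 12 and Platr18 clone 16 are NMuMG clones that overexpress the long noncoding RNA Platr18 (Lncenc1 in the table), with Empty vector cells as their control. E1KD SCR and E1KD Platr18 KD are E1KD cells with a scrambled hairpin and with a hairpin against Platr18. The labels give no number of tumors or mice behind M1P and L1P, and each overexpressing line is 1 clone, so a line and its state cannot be told apart. The labels do not say whether the libraries of a pair came from separate cultures, and p-values then measure only the spread between libraries.

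Cells make cholesterol from acetyl-CoA by way of mevalonate, squalene and lanosterol, and saturated fatty acids from the same precursor through malonyl-CoA. Both pathways are governed by the membrane-bound transcription factors encoded by Srebf1 and Srebf2. When sterols are scarce, Scap escorts these factors to the Golgi apparatus for cleavage, and when sterols are plentiful, the Insig1 product holds Scap back in the endoplasmic reticulum. Insig1 is itself a target of the pathway, and NF-Y and Sp1 are well known to act beside the sterol-regulated factors at such promoters.

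The promoters of 4 genes that stand out in the results are printed for reference. Hmgcs1 and Insig1 fell in L1P, E1KD, TGFb and both Platr18 clones, Fasn moved apart from the sterol genes, and Elovl6 had the largest change of the 29 genes under TGFβ. The sequences are from RefSeq (GRCm38.p6), written 5′ to 3′ on the strand of the gene and ending before the start of the gene in RefSeq and in the deposited table. Capitals mark TCACNCCAC (a core of the sterol regulatory element), CCAAT (the NF-Y box) and GGGCGG (the GC box), searched on both strands, so that ATTGG and CCGCCC are matches on the other strand. The windows are chr13:119690101-119690350 (+) for Hmgcs1, chr5:28071162-28071362 (+) for Insig1, chr11:120824549-120824797 (−) for Fasn and chr3:129532136-129532354 (+) for Elovl6.
Hmgcs1: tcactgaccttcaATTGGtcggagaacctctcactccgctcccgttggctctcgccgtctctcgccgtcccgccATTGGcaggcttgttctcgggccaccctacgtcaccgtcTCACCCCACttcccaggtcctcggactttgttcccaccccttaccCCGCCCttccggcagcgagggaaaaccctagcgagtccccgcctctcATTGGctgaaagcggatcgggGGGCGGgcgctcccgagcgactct
Insig1: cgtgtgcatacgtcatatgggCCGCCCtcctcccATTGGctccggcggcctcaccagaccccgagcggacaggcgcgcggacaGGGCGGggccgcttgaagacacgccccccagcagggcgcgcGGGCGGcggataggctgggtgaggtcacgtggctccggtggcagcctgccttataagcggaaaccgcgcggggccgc
Fasn: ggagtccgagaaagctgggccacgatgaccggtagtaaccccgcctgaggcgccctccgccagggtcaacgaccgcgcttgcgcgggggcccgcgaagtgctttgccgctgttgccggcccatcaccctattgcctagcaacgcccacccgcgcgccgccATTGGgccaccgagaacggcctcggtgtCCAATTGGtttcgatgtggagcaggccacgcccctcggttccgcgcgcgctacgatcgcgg
Elovl6: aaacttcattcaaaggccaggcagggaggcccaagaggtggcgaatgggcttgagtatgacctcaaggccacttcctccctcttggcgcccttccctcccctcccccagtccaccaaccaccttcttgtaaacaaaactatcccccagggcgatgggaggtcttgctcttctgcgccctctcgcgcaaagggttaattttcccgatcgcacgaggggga
The Hmgcs1 window held 1 match to TCACNCCAC, 3 to CCAAT and 2 to GGGCGG. Insig1 held 1 CCAAT and 3 GGGCGG matches, Fasn held 3 CCAAT matches, of which a pair overlapped, and Elovl6 had no match in the printed window. Promoter windows from 250 bases before to 50 bases after the start were on hand for 23 of the 29 genes and not for Fdps, Fdft1, Sqle, Stard4, Scd1 and Scd2. CCAAT was present in 19 of these 23 genes (82.6%), against 43.4% of the 8857 tested genes with a window. GGGCGG was present in 82.6% of the 23 against 69.9%, and TCACNCCAC in 1 of 23 (4.35%) against 1.43%. These are matches of letters and were not tested as binding sites.

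The libraries fell into a pair of sets by their content of mitochondrial ribosomal RNA. NMuMG, TGFb, E1KD, M1P and L1P (the NMuMG set) had mt-Rnr2 at 333 to 492 CPM (counts per 1000000 reads), and the Platr18 clones, Empty vector, E1KD SCR and E1KD Platr18 KD (the vector set) at 113874 to 165149 CPM. All comparisons were made within a set, apart from 1 interaction at the end. The step between the lowest values put the depth at 50.8 to 60.0 M reads (M for 1000000) per library in the NMuMG set and 63.0 to 147 M in the vector set. The lowest value of any of the 29 genes, 2.16 CPM for Mvk in an L1P library, then stood for 110 reads. Of the epithelial markers, Cdh1 was at 70.1 to 237 CPM, while Epcam was at most 0.0167 CPM in every library.

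E1KD replicate 1 stood apart. In this library the gene rows summed to 72.9% of the 1000000 that CPM is scaled to, against 54.8% to 58.1% in the other 9 libraries of the NMuMG set, and the median gene was 0.29 higher on the log2 scale than in E1KD replicate 2. Comparisons are therefore given on the deposited values and on values rescaled by median-of-ratios factors. This rescaling also raised TGFb, whose factors were 0.845 and 0.904. Pcbp1 was at 287 and 312 CPM in the NMuMG libraries and at 16.6 and 14.2 CPM in those of E1KD, and at 32.3 CPM in both Empty vector libraries against 3.28 and 3.46 CPM in E1KD SCR. In M1P and L1P it was at 26.5 to 30.5 CPM. Platr18 was at 3092 and 3096 CPM in clone 12, 813 and 820 CPM in clone 16, and 3.68 and 3.06 CPM in Empty vector. It was at 2.92 and 3.10 CPM in E1KD SCR and 0.136 and 0.170 CPM in E1KD Platr18 KD.

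**Figure D1:**
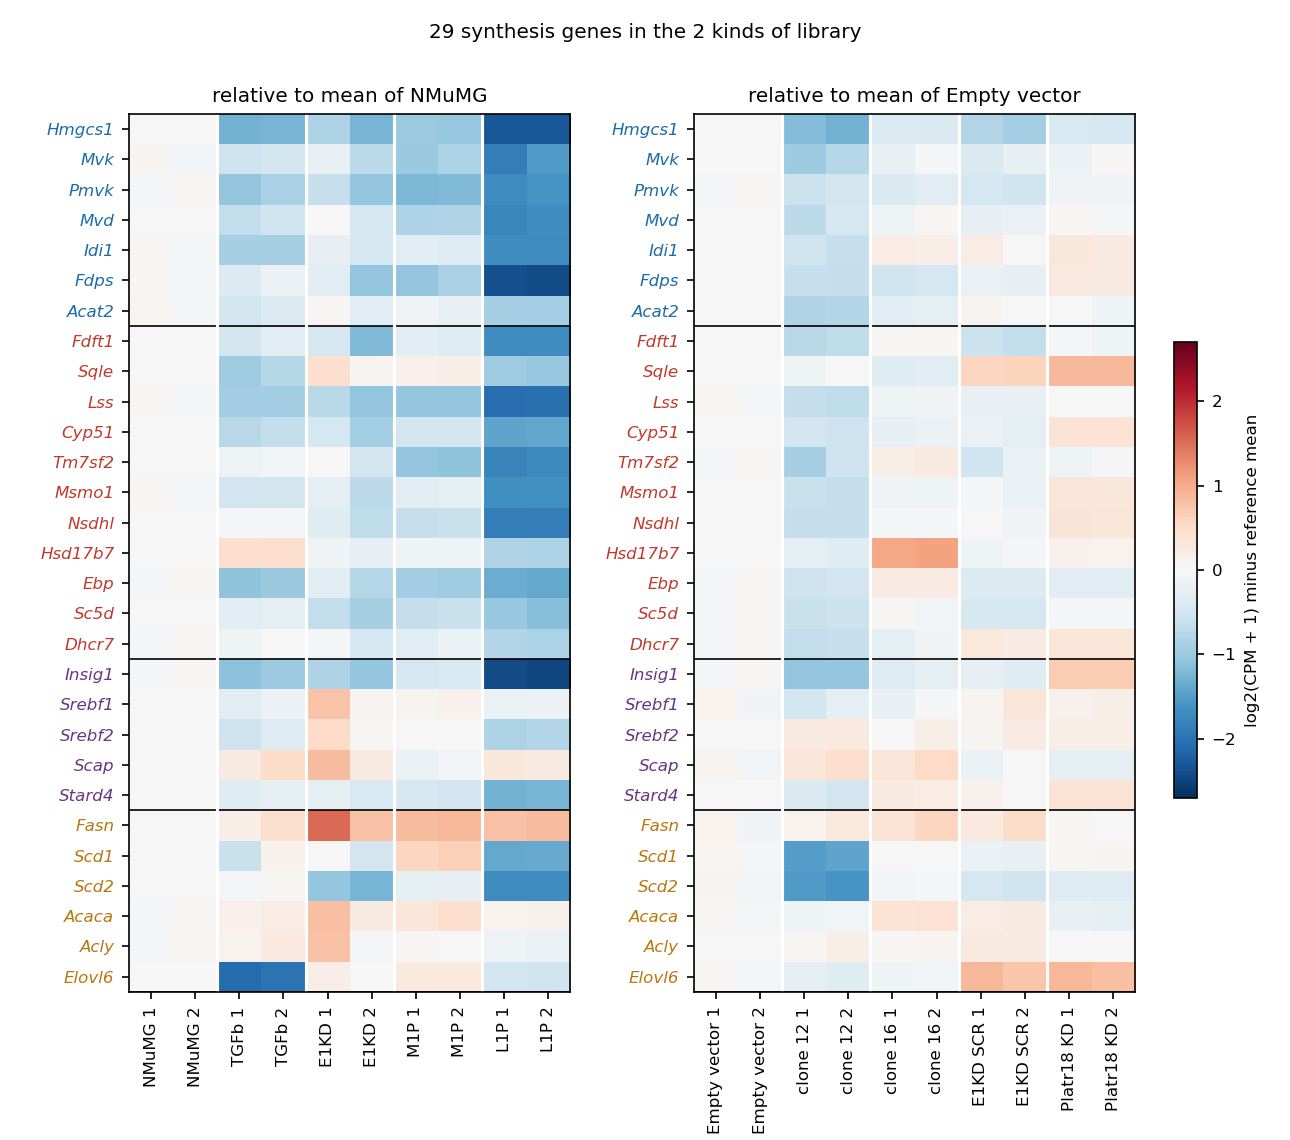
Each row is 1 of the 29 genes, coloured by role, and each column 1 library; colour gives log2(CPM + 1) minus the mean of NMuMG (left) or Empty vector (right), with blue for lower and red for higher. L1P and clone 12 are the deepest blue of their panels in most rows, and Fasn stays red in E1KD, M1P and L1P.

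The comparison of L1P with M1P asks how the line from lung metastases differed from the line from the primary tumor. Of the 29 genes, 24 fell and 0 rose in L1P (limma, adjusted p under 0.05), where 7.3% of all tested genes fell and 11.2% rose. At an unadjusted p under 0.05, 25 were lower and 1 was higher. The shares over all tested genes at that threshold are not given for this comparison. On values rescaled by median-of-ratios factors 26 fell and 1 rose, against 13.7% and 15.7% of all tested genes. The median log2 fold change of the 29 genes was -0.79, while that of all tested genes was 0.015. A log2 fold change of -1 or below in addition to the test was met by 10 of the 29 genes, against 0.474% of all tested genes.

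All 7 genes of the mevalonate steps and all 11 of the squalene and sterol steps fell. Hmgcs1, the synthase that commits acetyl units to the pathway, was at 98.2 and 95.1 CPM in M1P but only 38.9 and 39.1 CPM in L1P. Idi1, the isomerase that makes the reactive isoprenoid unit, went from 43.5 and 42.7 CPM to 16.4 and 16.1 CPM. Msmo1, which removes methyl groups from lanosterol derivatives, went from 85.2 and 85.6 CPM to 32.3 and 32.7 CPM. In each of these genes the libraries of a pair lay close together and the groups did not overlap. The log2 fold changes were -1.29 (SE 0.098, adjusted p = 5.2e-07) for Hmgcs1, -1.36 (SE 0.084, adjusted p = 5.0e-08) for Idi1 and -1.37 (SE 0.099, adjusted p = 2.9e-07) for Msmo1. Nsdhl, a dehydrogenase of the same demethylation steps, fell by 1.26 on the log2 scale, squalene epoxidase Sqle by 1.15 and lanosterol synthase Lss by 1.00. The log2 fold changes of Acat2, Mvk, Mvd, Cyp51, Tm7sf2, Hsd17b7 and Dhcr7 lay between -0.90 and -0.59. The smallest changes in these roles were in Ebp (-0.41), Pmvk (-0.46) and Sc5d (-0.46).

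Among the sensing genes, Insig1 had the largest change of the 29. It was at 47.8 and 49.4 CPM in M1P against 11.7 and 11.1 CPM in L1P, a 4.27-fold lower mean (log2 fold change -2.004, SE 0.074, adjusted p = 4.1e-10). Srebf2, which encodes the factor that mainly drives the sterol genes, fell from 181 and 183 CPM to 103 and 106 CPM (log2 fold change -0.80). Stard4, a cytosolic sterol carrier, fell by 0.79 on the log2 scale. Srebf1 (-0.27, adjusted p = 0.339) and Scap (0.39, adjusted p = 0.0985) did not pass the test as deposited. Both passed on rescaled values, Srebf1 as lower (-0.29, adjusted p = 0.0445) and Scap as higher (0.36, adjusted p = 0.00661).

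Among the fatty acid genes, the desaturases, which put the first double bond into saturated acyl chains, both fell. Scd1 went from 38.4 and 40.3 CPM in M1P to 9.24 and 9.28 CPM in L1P (log2 fold change -1.97, SE 0.18, adjusted p = 2.7e-06). Scd2 went from 1889 and 1907 CPM to 694 and 685 CPM (log2 fold change -1.46, SE 0.076, adjusted p = 1.0e-08). Elovl6, which lengthens palmitate, fell from 83.2 and 83.5 CPM to 48.2 and 47.6 CPM. The genes that make palmitate did not pass the test as deposited. Fasn was at 263 and 271 CPM in M1P, beside 251 and 262 CPM in L1P (log2 fold change -0.058, adjusted p = 0.937), and Acly (-0.17) and Acaca (-0.28) had adjusted p = 0.599 and 0.143. On rescaled values Acaca passed as lower (-0.31, adjusted p = 7.6e-04), while Fasn (-0.086, adjusted p = 0.642) and Acly (-0.20, adjusted p = 0.112) did not. Thus the desaturase and elongase genes were clearly separated between the lines, whereas all 4 Fasn values lay between 251 and 271 CPM.

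**Figure D2:**
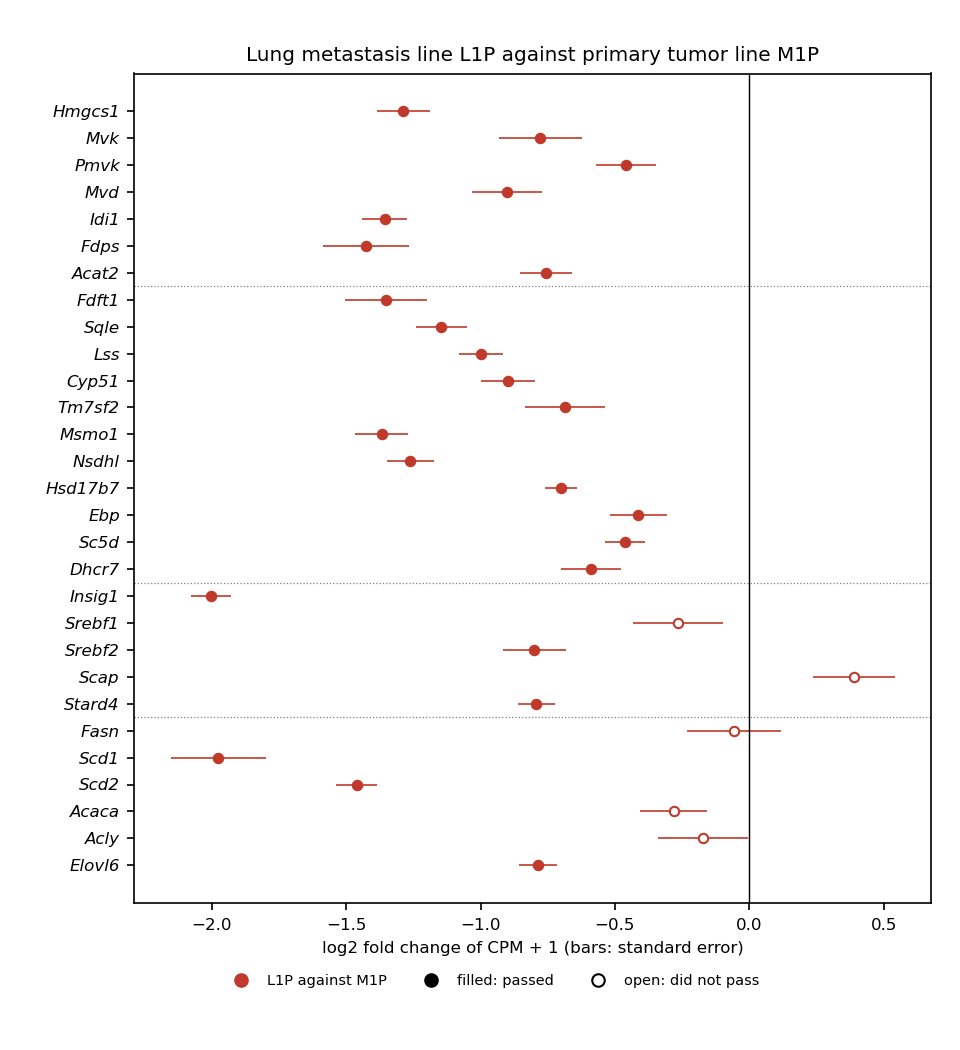
Log2 fold change of CPM + 1 in L1P against M1P for each of the 29 genes, in order of role with dotted lines between roles; bars are standard errors of the limma fit and filled points passed at adjusted p under 0.05. The points of the mevalonate and sterol roles all lie left of 0, and Scap is the 1 point right of it.

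L1P stood lowest of its set for most of the 29 genes. In 24 of the 29 genes both L1P libraries were below the other 8 libraries of the NMuMG set, while this held for 5.87% of the tested genes. At the other end, both NMuMG libraries were above the other 8 in 14 genes, against 9.71% of the tested genes. Insig1 shows the order of the lines: 64.5 and 67.9 CPM in NMuMG, 47.8 and 49.4 in M1P, 36.5 and 31.5 in E1KD, 30.2 and 33.0 in TGFb, and 11.7 and 11.1 in L1P. E1KD and TGFb overlapped in this order, and the other neighbours did not.

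Several of these genes share sequence with processed copies or neighbours, between which the counting may divide reads. Fdps, the farnesyl diphosphate synthase, fell from 23.04 and 26.4 CPM to 8.69 and 8.41 CPM (log2 fold change -1.43, SE 0.16, adjusted p = 2.2e-05), and in these libraries its copies Gm3571 and Gm5873 each stood above the gene itself, while the copy Gm7979 was at 0.0388 to 0.244 CPM. Fdps and these 3 copies summed to 181 and 182 CPM for M1P and to only 64.5 and 65.2 CPM for L1P. The copy of squalene synthase Fdft1, Gm6781, stood at 42.4 and 41.3 CPM in M1P against 15.1 and 15.6 CPM in L1P, beside 25.2 and 24.2 CPM and 9.08 and 9.08 CPM for Fdft1. Gm13502, a copy of Idi1, was at 23.4 and 21.7 CPM in M1P, against 7.83 and 8.52 CPM in L1P. The copies were lower in L1P in the same libraries as their genes. An antisense gene inside Hmgcs1, RP24-67N17.2, was at 10.2 and 9.29 CPM in M1P against 3.79 and 3.20 CPM in L1P. As strand was not stated for the counting, its reads cannot be told from those of Hmgcs1 in these libraries. It was at 3.20 to 23.8 CPM over the NMuMG set but at most 0.0559 CPM in the vector set. The reason for this difference between the kinds of library was not tested. Scd1 and Scd2 matched each other over 623 bases at 95.5% identity, so their values are not fully separate. They are neighbours on chromosome 19 (GRCm38), Scd2 at chr19:44293676-44306865 (+) and Scd1 at chr19:44394451-44407710 (−). Acaca has a long copy, Gm5182, at 96.4 to 124 CPM in these 4 libraries, above Acaca itself, so its values are uncertain. Cyp51 overlaps Akap9 on the other strand, which was higher in L1P, at 73.0 and 74.3 CPM against 37.6 and 40.0 CPM. Fdft1 shares 774 bases with Ctsb on the other strand, which was at 179 to 224 CPM in these 4 libraries. Likewise Srebf1 overlaps Rai1 (130.5 to 153 CPM, beside 38.8 to 47.9 CPM for Srebf1), and Mvd overlaps AC114005.5 (32.3 to 47.2 CPM, beside 4.10 to 8.90 CPM for Mvd). Tm7sf2 overlaps Vps51 on its own strand, Scap overlaps RP24-330A11.11 on the other strand, and Acat2 shares sequence with Acat3 and Tcp1. The values of all these genes are uncertain to that extent.

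Genes around the pathway were followed in 4 further lists. Their counts at adjusted p under 0.05 are to be read against the 7.3% of all tested genes that fell and the 11.2% that rose. No such shares are given for their counts at an unadjusted p. Of 16 tested genes that supply, lengthen, desaturate or activate fatty acids, 8 fell in L1P and 0 rose, with 10 lower and 0 higher at an unadjusted p under 0.05. Fads1, the desaturase of polyunsaturated chains, fell by 1.17 on the log2 scale (SE 0.078, adjusted p = 1.2e-07) and Fads2 by 0.91. Of 11 tested sterol-linked genes, 3 fell and 2 rose, so that the rises were near the share over all genes. Tmem97, a sterol-responsive membrane protein, fell by 0.76 on the log2 scale, whereas Mbtps1, the site-1 protease that cleaves the sterol-regulated factors, rose by 0.85 (SE 0.14, adjusted p = 7.2e-04). Of 7 glycerolipid genes 3 fell, by 0.41 or less in size, and of 5 tested efflux and storage genes 0 passed (limma), with 1 lower at an unadjusted p under 0.05. The summed CPM of 6 epithelial markers was 1337 in both L1P libraries against 2342 and 2393 in M1P, and that of 4 mesenchymal markers 1457 and 1464 against 1420 and 1422. The single markers did not all follow their sums. Cdh1 was higher in L1P, at 112 and 108 CPM against 71.5 and 70.1 CPM in M1P. Fn1 was at 135 and 135 CPM in L1P against 43.8 and 44.0 CPM in M1P, while Vim was at 1220 and 1226 CPM against 1283 and 1288 CPM. The leukocyte and macrophage markers summed to 5.65 to 7.10 CPM in these 4 libraries with Adgre1 at 0, and the lung epithelium markers to at most 0.0194 CPM. The part of these marker differences in the lower synthesis genes was not tested. In bulk RNA, fewer cells of a kind and less RNA per cell cannot be told apart.

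Silencing of hnRNP E1 was compared between E1KD and NMuMG. On the deposited values 16 of the 29 genes fell and 5 rose, against 17.1% and 39.6% of all tested genes, and the median log2 fold change was -0.33 beside 0.17 for all genes. On rescaled values 21 fell and 3 rose, against 29.5% and 31.5%, with medians of -0.55 and 0.020. Falls thus outnumbered rises on both scales. With 1 library left out at a time, the median log2 fold change of the 29 genes ran from -0.50 to -0.21. When limma was fitted to the 4 libraries compared alone, however, 4 genes fell and 0 rose, with 10 at an unadjusted p under 0.05. The shares over all tested genes were not recorded for that fit. A log2 fold change of -1 or below was met by 2 of the 29 genes as deposited, against 3.02% of all tested genes, and by 6 on rescaled values, against 4.13%.

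Scd2 had the largest fall, from 2240 and 2237 CPM in NMuMG to 1088 and 934 CPM in E1KD (log2 fold change -1.15, SE 0.076, adjusted p = 1.3e-08; -1.37 rescaled). Hmgcs1 went from 195 and 194 CPM to 109 and 81.2 CPM (log2 fold change -1.04, SE 0.098, adjusted p = 6.3e-07; -1.25 rescaled). Insig1 went from 64.5 and 67.9 CPM to 36.5 and 31.5 CPM (log2 fold change -0.94, SE 0.074, adjusted p = 8.4e-08; -1.15 rescaled). In all 3 genes both E1KD libraries were below both NMuMG libraries. The standard errors and p-values rest on the spread within all 10 groups and do not measure the wider spread of the E1KD pair. Lss fell by 0.91 on the log2 scale (SE 0.081, adjusted p = 3.2e-07), phosphomevalonate kinase Pmvk by 0.83, Fdft1 by 0.82 and Sc5d by 0.77. Sqle did not follow: its log2 fold change was 0.26 as deposited and 0.051 rescaled, where it no longer passed the test. The summed mesenchymal markers were 529.8 and 550.4 CPM for NMuMG, 1329 and 1808 CPM for E1KD and 1332 and 1543 CPM in TGFb, and their part in these differences was not tested.

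Fasn rose, against the direction of the sterol genes. It was at 145 and 144 CPM in NMuMG against 418 and 251 CPM in E1KD (log2 fold change 1.16, SE 0.17, adjusted p = 6.1e-05). The pair of E1KD libraries lay far apart, and the log2 fold change was 0.95 rescaled (SE 0.11, adjusted p = 2.3e-06) and 0.79 without E1KD replicate 1. Acaca (0.31) and Scap (0.34) also rose on rescaled values. Srebf1 passed as deposited (0.42) and not after rescaling (0.20). Among the other lists, Fads1 fell by 1.05 on the log2 scale and Elovl1 rose by 0.90. Nr1h3, which encodes a sterol-sensing nuclear receptor, fell by 1.31 and the lysosomal lipase gene Lipa by 1.26. In their list of 5 efflux and storage genes 3 fell and 0 rose as deposited, against the 17.1% and 39.6% above. The counts were the same at an unadjusted p under 0.05, where 3144 of the 17103 tested genes were lower and 7350 higher.

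TGFβ treatment of NMuMG gave 17 falls and 1 rise as deposited, against 33.6% and 21.8% of all tested genes, with a median of -0.39 beside -0.077 for all genes. Rescaled, 15 fell and 7 rose, against 29.5% and 32.9%, with medians of -0.21 and 0, so the share of genes that rose depended on the scale. A log2 fold change of -1 or below was met by 4 genes as deposited, against 7.77% of all tested genes, and by 2 on rescaled values, against 6.02%, which is near the share over all genes. The comparison shares the NMuMG libraries with that of E1KD. Elovl6 had the largest change of the 29 genes here, from 69.2 and 69.7 CPM in NMuMG to 15.7 and 16.8 CPM in TGFb, 4.27-fold lower (log2 fold change -2.03, SE 0.071, adjusted p = 8.9e-12; -1.86 rescaled). Hmgcs1 went from 195 and 194 CPM to 80.1 and 81.2 CPM (log2 fold change -1.26, SE 0.098, adjusted p = 5.4e-08; -1.08 rescaled). Ebp, the sterol isomerase, went from 70.0 and 74.0 CPM to 33.2 and 35.4 CPM (log2 fold change -1.05), Insig1 fell by 1.04 on the log2 scale and Pmvk by 0.97. In each of these genes the groups did not overlap and the direction held after rescaling.

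The 1 gene that rose as deposited was Hsd17b7, a ketoreductase of the sterol demethylation steps, from 27.4 and 27.1 CPM to 37.7 and 38.1 CPM (log2 fold change 0.46, SE 0.060; 0.64 rescaled). Scd2 did not pass as deposited (log2 fold change 0.017, adjusted p = 0.912) and Scd1 varied between the TGFb libraries, at 16.5 and 27.9 CPM, against 25.4 and 25.6 CPM in NMuMG. Fasn was at 163 and 194 CPM in TGFb (log2 fold change 0.30, adjusted p = 0.165; 0.48 rescaled, where it passed). In the other lists, Acsl5 fell by 1.87, Me1, a source of NADPH for fatty acid synthesis, by 1.80 and Tmem97 by 1.37 on the log2 scale, while the lipid droplet protein gene Plin2 rose by 1.94 and Npc2, which moves cholesterol out of lysosomes, by 1.58.

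**Figure D3:**
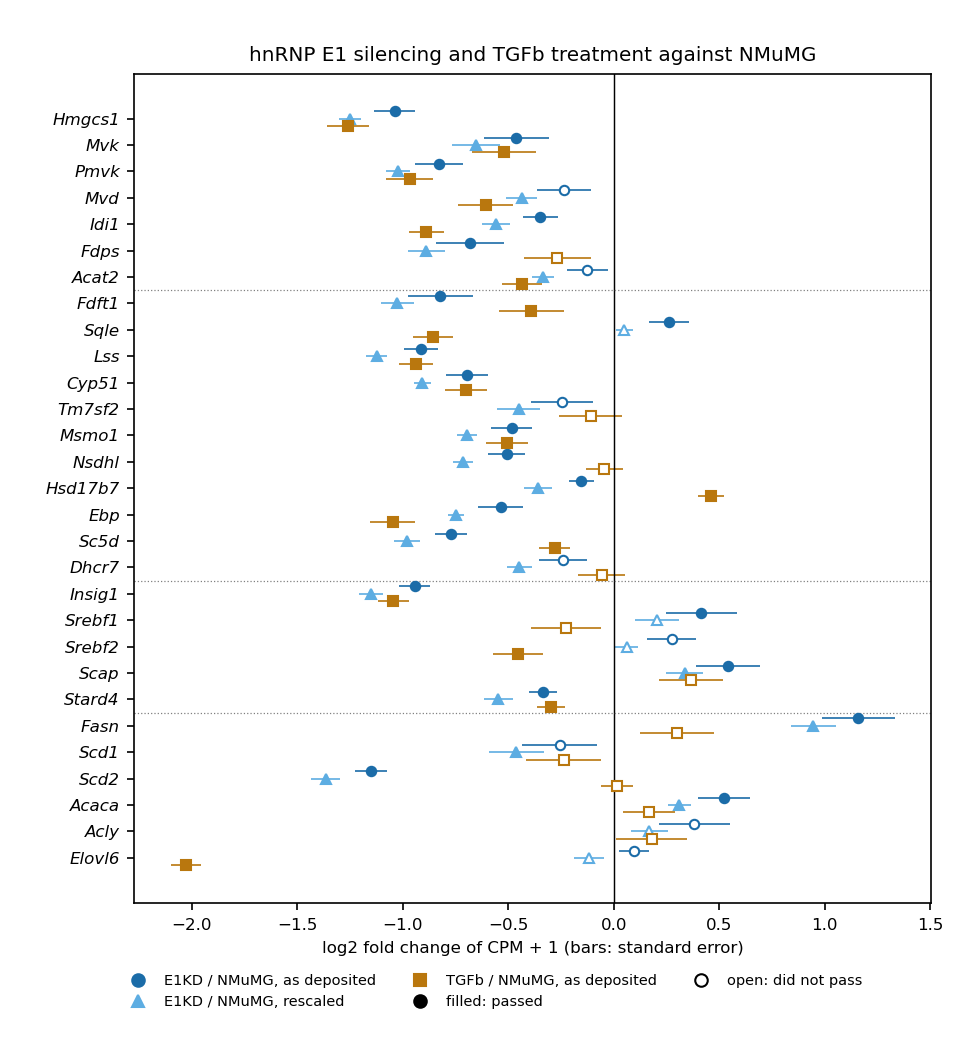
Log2 fold change of CPM + 1 of the 29 genes for E1KD against NMuMG, as deposited (circles) and rescaled by median of ratios (triangles), and for TGFb against NMuMG as deposited (squares); bars are standard errors and filled points passed. Elovl6 is far left in TGFb alone, Scd2 is far left in E1KD alone, and Hmgcs1 and Insig1 are left in both.

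E1KD was then set directly against TGFb. As deposited 10 of the 29 genes were higher in E1KD and 6 lower, against 50.4% and 21.1% of all tested genes. Rescaled, 6 were higher and 18 lower, against 37.6% and 36.3%, and the median moved from 0.10 to -0.29. Directions that passed on both scales included those of Elovl6 (log2 fold change 2.12, SE 0.071, adjusted p = 3.8e-12; 1.74 rescaled), Sqle (1.12, SE 0.095; 0.73 rescaled), Fasn (0.86; 0.46 rescaled), Srebf2 (0.73; 0.33 rescaled) and Scd2 (-1.17, SE 0.076, adjusted p = 5.1e-09; -1.57 rescaled). In CPM, Elovl6 was at 78.6 and 70.1 in E1KD against 15.7 and 16.8 in TGFb, Sqle at 129 and 99.9 against 48.3 and 55.2, and Scd2 at 1088 and 934 against 2197 and 2337. In each of these 3 genes the libraries of the silenced and the treated cells were well apart.

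M1P was compared with E1KD, the cells that had been injected. As deposited 4 genes were higher in M1P and 6 lower, against 12.1% and 37% of all tested genes. Rescaled, 13 were higher and 5 lower, against 24.9% and 26.1%, and the median changed sign from -0.12 to 0.10. Scd2 was at 1889 and 1907 CPM in M1P against 1088 and 934 CPM in E1KD (log2 fold change 0.91, SE 0.076, adjusted p = 4.3e-07; 1.13 rescaled). Scd1 was at 38.4 and 40.3 CPM against 25.4 and 17.7 CPM (log2 fold change 0.86, SE 0.18, adjusted p = 1.48e-03; 1.07 rescaled), and Insig1 (0.51; 0.72 rescaled) and Fdft1 (0.51; 0.71 rescaled) were also higher. The Fdft1 difference is uncertain, as Ctsb, which shares sequence with it, was at 216 and 224 CPM in M1P against 120 and 96.8 CPM in E1KD. The Fdft1 copy Gm6781 was at 42.4 and 41.3 CPM against 24.8 and 25.2 CPM. Tm7sf2, a sterol reductase (-0.82, -0.61 rescaled), Scap (-0.66, -0.45 rescaled) and Mvd, the decarboxylase that ends the mevalonate steps (-0.58, -0.38 rescaled), were lower on both scales. These differences are uncertain too, as overlapping genes were also lower in M1P. Vps51, which overlaps Tm7sf2, was at 14.8 and 14.7 CPM in M1P against 28.1 and 19.4 CPM in E1KD. RP24-330A11.11, which overlaps Scap, was at 4.37 and 3.87 against 7.24 and 4.48 CPM. AC114005.5, which overlaps Mvd, was at 32.3 and 33.5 against 49.5 and 46.2 CPM. Both desaturase genes were thus above their E1KD levels in M1P, while in L1P, at the values given above, both were below them. L1P was not tested against E1KD. With only the M1P and E1KD libraries in the limma fit, 0 of the 29 genes passed, with 4 at an unadjusted p under 0.05. The shares over all tested genes were not recorded for that fit.

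**Figure D4:**
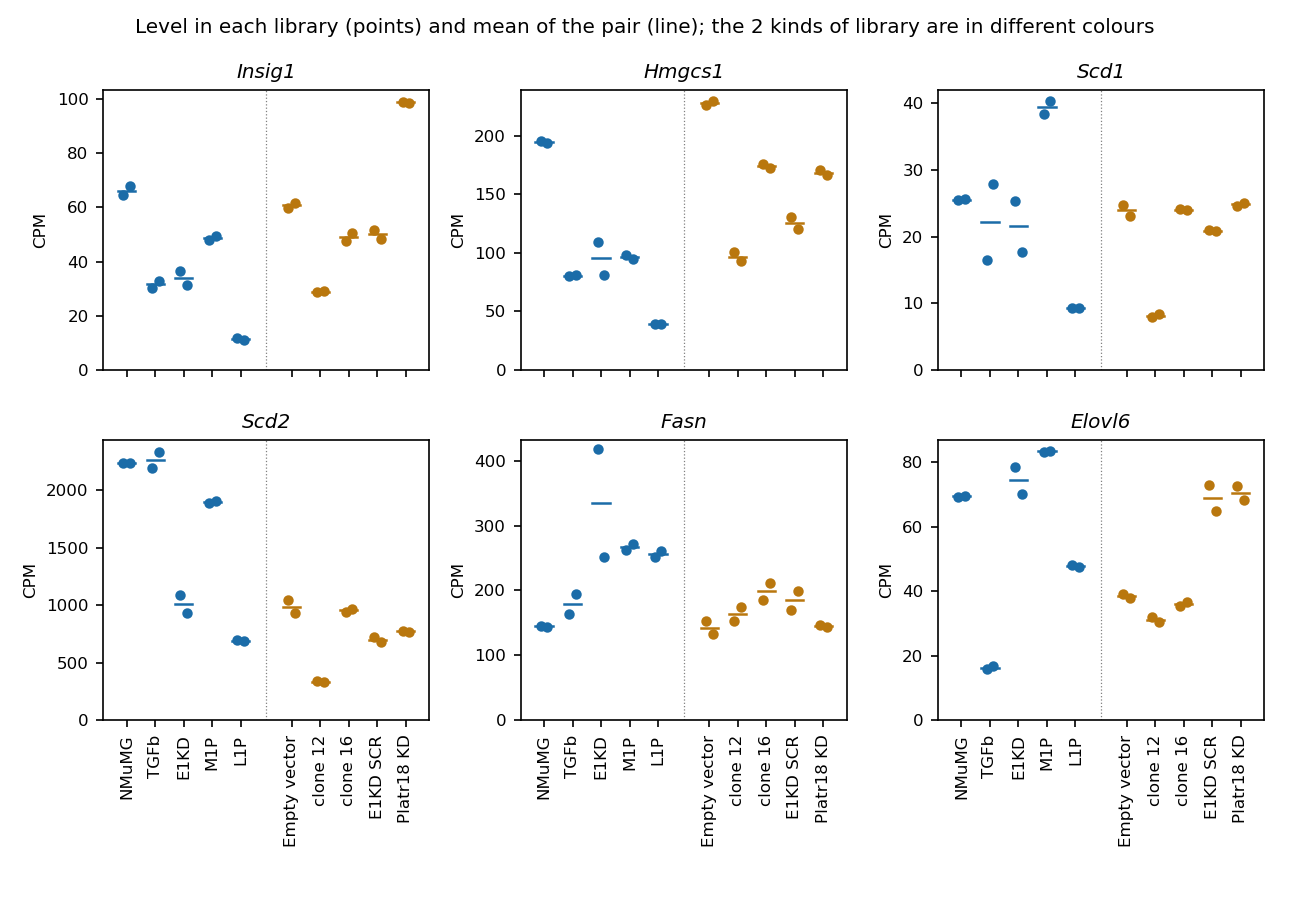
CPM of 6 genes in each of the 20 libraries, with the mean of each pair as a line; axes start at 0 and the NMuMG set (left of the dotted line) and the vector set (right) are not compared with each other. L1P and clone 12 are the lowest of their sets for Insig1, Scd1 and Scd2, while Fasn and, in the NMuMG set, Elovl6 follow other orders.

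In the vector set, the Platr18 clones were compared with Empty vector. As the mean of both clones, 15 of the 29 genes were lower and 2 higher, against 15.6% and 13.2% of all tested genes, with a median log2 fold change of -0.31 beside 0.0062. On rescaled values 22 were lower and 5 higher, against 22.1% and 19.3%. The clones differed from each other. In clone 12, 22 genes were lower and 0 higher (limma), against 21.5% and 18.1% of all tested genes. At an unadjusted p under 0.05 the counts were 23 and 2, and the shares at that threshold are not given for the clones. In clone 16, 5 were lower and 3 higher, against 11.9% and 11.3%. On rescaled values 23 were lower and 2 higher in clone 12 (against 27.1% and 24.2%), and 8 were lower and 6 higher in clone 16 (against 18.7% and 17.4%). Set directly against clone 12, clone 16 had 21 genes higher and 0 lower, against 23.7% and 18.9%. Of these, 3 had a log2 difference of at least 1, against 2.71% of all tested genes. At an unadjusted p under 0.05, 21 were higher and 1 lower. On rescaled values 24 were higher and 2 lower, against 28.4% and 25.2%. The median log2 difference between the clones was 0.55, and that of all tested genes 0.0099.

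Scd2 was at 1042 and 933 CPM in Empty vector, 339 and 328 CPM in clone 12 and 939 and 969 CPM in clone 16. Scd1 was at 24.8 and 23.1 CPM in Empty vector, 7.87 and 8.34 CPM in clone 12 and 24.1 and 23.9 CPM in clone 16. Clone 16 therefore overlapped Empty vector in both desaturases and clone 12 was apart from both. Against Empty vector the log2 fold changes in clone 12 were -1.56 (SE 0.076, adjusted p = 1.5e-09) for Scd2 and -1.45 (SE 0.18, adjusted p = 1.8e-05) for Scd1, and in clone 16 they were -0.047 and 0.0047, neither of which passed. Hmgcs1 was lower than its 226 and 229 CPM in Empty vector in both clones, at 101 and 92.9 CPM in clone 12 and 176 and 172 CPM in clone 16. Insig1 was at 59.7 and 61.8 CPM in Empty vector, 28.7 and 29.02 CPM in clone 12 and 47.5 and 50.7 CPM in clone 16. Hmgcs1 and Insig1, with Pmvk and Fdps, were the 4 of the 29 genes that fell in both clones as deposited.

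Hsd17b7 moved in opposite directions in the clones. It was at 23.4 and 23.1 CPM in Empty vector, 19.3 and 18.3 CPM in clone 12 (log2 fold change -0.29) and 48.8 and 50.4 CPM in clone 16 (log2 fold change 1.06, SE 0.060, adjusted p = 1.5e-08). Between the clones the difference was 1.35 for Hsd17b7, 1.51 for Scd2, 1.46 for Scd1, 0.95 for Tm7sf2 and 0.84 for Hmgcs1, all higher in clone 16. Both clone 12 libraries were below the other 8 libraries of the vector set in 22 of the 29 genes, against 17.7% of the tested genes. Platr18 itself was higher in clone 12 than in clone 16, as given with the libraries, and its level and the clone cannot be told apart. Both clones are set against the same Empty vector libraries. Beyond the 29 genes, Acsl1 (1.36), Acss2 (1.30), Lipa (1.01), Lpin1 (1.00) and Gpam (0.99) were higher in clone 16 than in clone 12 on the log2 scale, with 9 of 16 fatty acid supply genes higher and 1 lower, against 23.7% and 18.9% of all tested genes. The summed epithelial markers were 3490 and 4011 CPM in clone 12, 3059 and 3116 CPM in clone 16 and 2717 and 2980 CPM in Empty vector, with Epcam at 0, and their part in the difference was not tested.

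**Figure D5:**
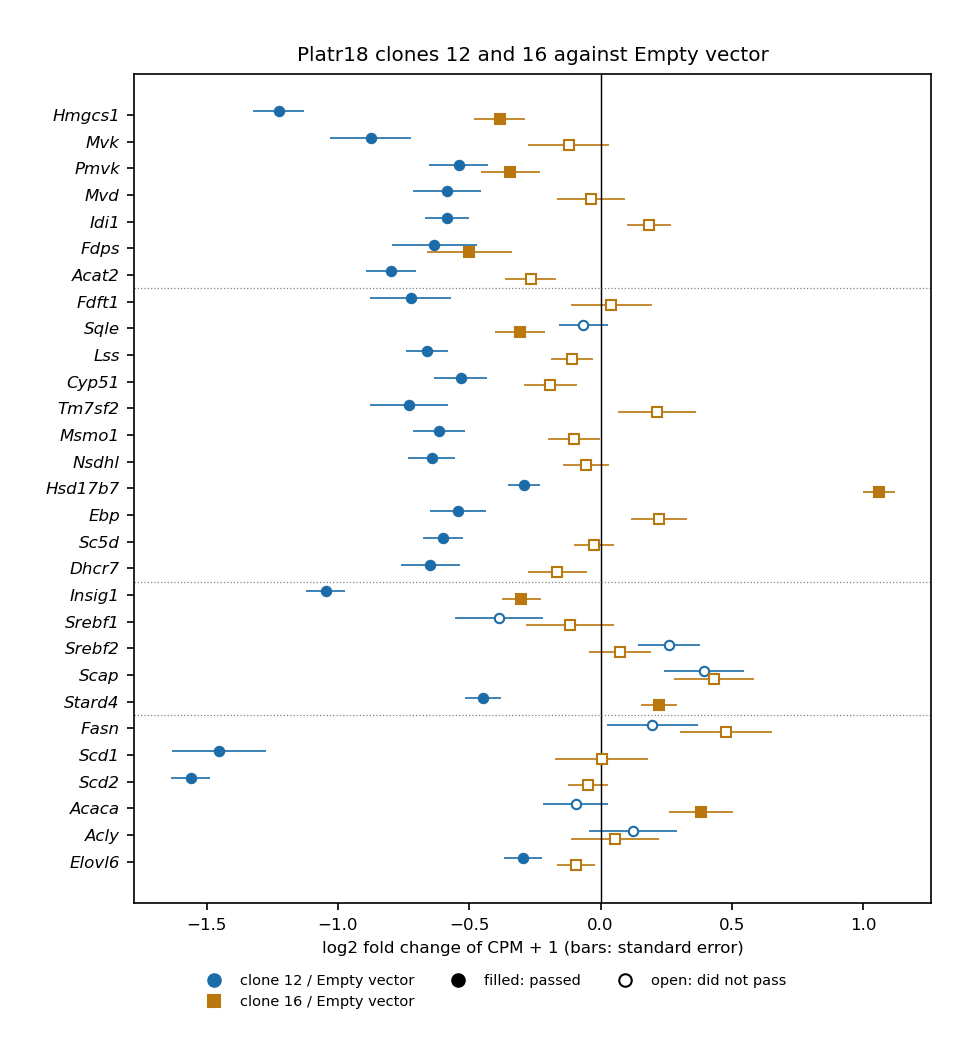
Log2 fold change of CPM + 1 of the 29 genes in clone 12 (circles) and clone 16 (squares) against the same Empty vector libraries; bars are standard errors and filled points passed. Clone 12 lies left of clone 16 in most rows, by the most in Scd2, Scd1 and Hsd17b7.

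Silencing of Platr18 in E1KD cells was compared with the scrambled hairpin. Of the 29 genes 11 were higher in E1KD Platr18 KD and 1 lower, against 8.45% and 11% of all tested genes, with a median of 0.22 beside -0.020. On rescaled values 17 were higher and 2 lower, against 16.3% and 15.1%. Both E1KD Platr18 KD libraries differed from the rest of the vector set in depth (147 M reads, against 63.0 to 73.9 M), in mt-Rnr2 (113874 and 114262 CPM, against 130699 to 165149 CPM) and in the sum of the gene rows (74.2% and 74.3% of 1000000, against 76.7% to 79.7%). The part of these properties in the differences was not tested. Insig1 was at 98.9 and 98.5 CPM after silencing against 51.8 and 48.4 CPM with the scrambled hairpin (log2 fold change 0.97, SE 0.074, adjusted p = 4.4e-07). Cyp51, the lanosterol demethylase, was at 156 and 157 CPM against 108 and 101 CPM (log2 fold change 0.58, SE 0.10, adjusted p = 8.8e-04), and Fdft1 at 34.6 and 33.4 CPM against 23.7 and 22.5 CPM (0.54). Msmo1 (0.43), Hmgcs1 (0.42), Pmvk (0.41), Sc5d (0.40) and Nsdhl (0.38) passed with smaller differences, so that 7 of the 11 genes of the squalene and sterol steps rose. Acaca was the gene that fell (-0.44). With single libraries left out, fewer of the 29 genes passed than in the full fit, and the median log2 fold change ran from 0.18 to 0.24. The shares over all tested genes were not recorded for such fits. Both E1KD Platr18 KD libraries were above the other 8 libraries of the vector set in 9 genes, among them Insig1, Idi1, Fdps, Sqle and Cyp51, against 13.2% of the tested genes. The summed mesenchymal markers were 506.8 and 516.5 CPM in E1KD Platr18 KD against 751 and 815 CPM in E1KD SCR. The single markers did not all follow this sum. Vim was at 394 and 388 CPM against 619 and 684 CPM, while Cdh2 was at 101 and 95.5 CPM against 87.4 and 85.0 CPM. The summed epithelial markers were also lower, at 1963 and 1982 CPM against 2216 and 2438 CPM. The part of the markers in the differences of the 29 genes was not tested.

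The effect of hnRNP E1 silencing was also read in the vector set, as E1KD SCR against Empty vector. E1KD SCR also carries a scrambled hairpin, while Empty vector is the control of the Platr18 clones. Silencing and these constructs cannot be told apart in this comparison. Here 7 genes were lower and 2 higher, against 19.6% and 23% of all tested genes, with a median of -0.12 beside 0.024. On rescaled values 14 were lower and 5 higher, against 26.8% and 26.5%. With only libraries of the vector set in the fit 14 were lower and 6 higher, and the shares over all tested genes were not recorded for that fit. Hmgcs1 was at 130 and 120 CPM against 226 and 229 CPM (log2 fold change -0.86, SE 0.098, adjusted p = 6.8e-06). Elovl6 was at 72.9 and 65.0 CPM against 39.2 and 37.7 CPM (log2 fold change 0.82, SE 0.071, adjusted p = 3.7e-07), and Sqle at 132 and 135 CPM against 88.6 and 88.6 CPM (0.59). Fdft1 (-0.62), Pmvk (-0.51), Scd2 (-0.50), Sc5d (-0.45), Ebp (-0.37) and Insig1 (-0.27) were the other genes that fell as deposited.

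The difference between the silencing effects in both sets was tested as an interaction. It was lower in the NMuMG set for 10 of the 29 genes and higher for 2, against 5.86% and 15.4% of all tested genes, and none of the 29 differed by 1 or more on the log2 scale. The median difference was -0.20, beside 0.17 for all tested genes. On rescaled values 18 were lower and 2 higher, against 14.2% and 16% of all tested genes. The counts depended on single libraries, as given at the end, and the shares over all tested genes were not recorded for such fits. The Elovl6 effect was 0.10 in the NMuMG set and 0.82 in the vector set (difference -0.73, SE 0.10, adjusted p = 1.3e-04), that of Lss -0.91 and -0.20 (difference -0.72), that of Insig1 -0.94 and -0.27 (difference -0.67) and that of Scd2 -1.15 and -0.50 (difference -0.65). The effect on Fasn was larger in the NMuMG set (1.16 against 0.37, difference 0.79, SE 0.25, adjusted p = 0.0353), but the difference was 0.61 on rescaled values (SE 0.15, adjusted p = 0.00719) and only 0.42 without E1KD replicate 1 (SE 0.15, adjusted p = 0.0400). Hmgcs1 fell in both, and its difference of -0.18 did not pass as deposited (adjusted p = 0.356), but passed on rescaled values (-0.36, adjusted p = 0.00219). The Hmgcs1 difference was -0.39 without E1KD replicate 1 and 0.028 without E1KD replicate 2, so it depended on which library was left out. The sets differ in the constructs the cells carry and in the kind of library, which cannot be told apart. Overlapping genes and copies also stood at different levels in the sets. The antisense gene inside Lss was at 0.284 to 1.90 CPM in the NMuMG set and at 0 in the vector set. Rai1, which overlaps Srebf1, was at 130.5 to 261 CPM against 27.6 to 45.6 CPM. The Fdps copy Gm7979 was at 0.0388 to 1.18 CPM against 10.1 to 19.1 CPM. Their part in the differences between the sets was not tested.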

How the data were processed

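The deposited table holds counts per 1000000 reads (CPM) for each gene and library; per the labels and the study's methods, the authors sequenced total RNA in single-pass reads, mapped them with Bowtie2 (version 2.2.5 in the submitters' processing notes) to GRCm38.p6 with the M18 annotation, estimated reads per gene by expectation maximisation in Partek, and added 1e-04 to every value. The strand setting of the counting was not given in the sources used here, and an estimate of this kind can divide reads among near-identical copies. The value 1e-04 was subtracted, and 17103 of 54986 genes were tested, those that reached 1 CPM in 2 or more libraries.

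Tests used limma (version 3.58.1 in R 4.3.3, empirical Bayes with a mean trend) on log2(CPM + 1), with all 20 libraries and the 10 group means in 1 fit and 10 residual degrees of freedom. Fold changes are on this scale, which understates changes of low genes. A gene passed at a Benjamini-Hochberg adjusted p under 0.05 over all tested genes. All comparisons were made within a kind of library, except for the interaction. Rescaled values were divided by median-of-ratios factors within each kind of library. The pipeline was tested on simulated data. Copies were sought with BLAST 2.17.0 among annotated transcripts (at least 95% identity over 100 bases or more).

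The members and the lists were chosen with earlier results of these data known. Full statistics were given for the 5 genes with the largest passing changes in each comparison and genes of the same role beside them, and from each further list for up to 4 genes with the largest passing changes. Alternatives covered the pseudocount, filter, scaling, libraries in the fit, a replicate block, a stricter rule and leaving out each library. Figures were drawn with matplotlib 3.10.9.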

Additional observations from a re-analysis of the deposited data

Results flagged for a closer look

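Scd2, Scd1 and Hsd17b7 were picked out because the Platr18 clones, set against the same Empty vector libraries, differed from each other when the difference itself was tested (limma, adjusted p over all tested genes). Clone 16 minus clone 12 was 1.51 on the log2 scale for Scd2 (SE 0.076, adjusted p = 1.8e-09), 1.46 for Scd1 (SE 0.18, adjusted p = 1.5e-05) and 1.35 for Hsd17b7 (SE 0.060, adjusted p = 4.9e-10). Both clone 16 libraries were above both clone 12 libraries in each of these genes. As the genes were picked by this difference, that order adds no separate evidence. Scd1 and Scd2 share sequence, as given above, and are not fully separate.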

How the results depend on the processing

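For the alternatives below, shares over all tested genes were recorded only for median-of-ratios rescaling and for the single clones. Counts at an unadjusted p under 0.05 are given here without that share. For L1P against M1P, 84 of 85 values kept their direction and side or size. The exception was an unadjusted p under 0.001 with a log2 fold change of at least 1 in size, which 10 genes met. Without 1 library at a time 22 to 23 genes passed, with medians of -0.82 to -0.78. Over the 5 genes named in each comparison, 548 of 570 values kept their direction and side, 21 lost the threshold and 1 reversed (Scd1 with clone 16 alone against Empty vector, 0.0047).

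Under the stricter rule 3 genes passed in E1KD against NMuMG, 4 in TGFb against NMuMG, 3 in E1KD against TGFb, 3 in clone 16 against clone 12, and 0 in M1P against E1KD, the clones, Platr18 silencing and E1KD SCR against Empty vector, where limma gave 14, 22, 15 and 12 at an unadjusted p under 0.05. With median-of-ratios rescaling the counts were 18 in M1P against E1KD, 27 for the clones, 19 for Platr18 silencing, 19 for E1KD SCR and 20 for the interaction, and with equal sums 19, 26, 19, 17 and 21. Medians moved to -0.55 and -0.51 under these scalings in E1KD against NMuMG, to -0.21 in TGFb against NMuMG (median of ratios), to -0.29 and -0.082 in E1KD against TGFb, and reversed to 0.10 and 0.059 in M1P against E1KD. With only libraries of the same kind in the fit, 6 genes passed in M1P against E1KD and 20 in E1KD SCR against Empty vector. With only the compared groups, 4 passed in E1KD against NMuMG, 4 in E1KD against TGFb, 0 in M1P against E1KD (4 at an unadjusted p under 0.05) and 19 in E1KD SCR against Empty vector, with fewer libraries to estimate the spread. With no filter, 7 passed in the interaction. Clone 12 alone had a median of -0.58, and clone 16 alone had 8 genes passing and a median of -0.047. Other causes were not tested.

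Leaving out 1 library, with the lone library assumed to vary like the other groups, gave 3 to 7 genes in Platr18 silencing, 11 to 17 for the clones (11 without Empty vector replicate 2), 7 to 22 in M1P against E1KD (22 without E1KD replicate 2) and 4 to 20 in the interaction (20 without E1KD replicate 1). Medians ran from -0.50 to -0.21 in E1KD against NMuMG, -0.50 to -0.29 in TGFb against NMuMG, -0.13 to 0.31 in E1KD against TGFb, and -0.28 to 0.090 in M1P against E1KD, which reversed without E1KD replicate 1.

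Replicate numbers did not pair the libraries (correlations of deviations from -0.395 to 0.287). The replicate block moved no count by over 1.5 times: 20 genes passed in E1KD against NMuMG, 18 in TGFb against NMuMG, 17 in E1KD against TGFb, 10 in M1P against E1KD, 24 in L1P against M1P, 18 for the clones, 21 between the clones, 11 in Platr18 silencing, 9 in E1KD SCR against Empty vector and 11 in the interaction. Blocks with crossed numbers, added after seeing the data, gave 17 in E1KD against TGFb and 18 for the clones. The precision of every value is limited by the 2 libraries a group.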
